A study of Rattus norvegicus with 8 samples.

Results

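The AP-1 genes Fos, Fosb, Fosl1, Fosl2, Junb and Jund were followed in INS-1 cells, a line from a rat insulinoma that makes insulin and stands in for pancreatic beta cells. The genes were chosen by name as Fos and Jun family members, with earlier results of these data known. All 6 were listed in both deposited expression tables, which hold 1344 and 566 genes and together 1586 different genes. Jun, of the same family but listed only in the first of these, is not among the 6 and is described apart. Fosb is written in the files as an identifier made from its gene ID. Expression was measured by RNA sequencing in 8 libraries, 1 per group. Of these, 4 came from cells given 20 mM or 2.8 mM glucose for 3 days and then 10 uM forskolin, or DMSO as vehicle, for 2 h. The remaining 4 were of cells in 11 mM glucose that had A-CREB adenovirus on them for 2 days or no virus at all, each with forskolin or DMSO. The time at 11 mM glucose is not given in the labels.

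Forskolin turns on adenylyl cyclase, which makes cAMP. Protein kinase A, activated by cAMP, phosphorylates the transcription factor CREB, and the dominant-negative protein A-CREB keeps CREB off DNA. The question of the series was the effect of glucose and of CREB on cAMP-driven transcription. With 1 library per group no difference had a replicate check, no test between conditions was run, and the values describe these libraries. The A-CREB controls had no virus, so infection and A-CREB cannot be told apart.

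AP-1 is a family of dimeric transcription factors with a basic region that grips DNA and a leucine zipper that joins the partners. Fos proteins (Fos, Fosb, Fosl1 and Fosl2) need a Jun partner, whereas Jun proteins (Jun, Junb and Jund) can also pair with each other. Fos is a classic immediate early gene, transcribed within minutes of a stimulus, and cAMP reaches it through CREB bound at a cAMP response element (CRE) of its promoter. Jund is present in most resting cells, Junb is inducible, and Fosl1 and Fosl2 encode Fos proteins without the strong activation domain of Fos and Fosb. Fosb also gives a shortened splice form, which gene-level values do not separate.

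A gene entered a table only if forskolin gave over 2 times its DMSO value in a reference condition, 2.8 mM glucose in the glucose table and no virus in the A-CREB table. Induction of a member in the reference condition is therefore what placed it in the table. The same reference values enter each comparison with the second condition. The listing itself thus favours a lower fold, forskolin level and increment there, and a higher DMSO level. By how much was not tested. Values are FPKM, that is fragment numbers adjusted for transcript length and sequencing depth, and each table was treated on its own. Folds are ratios of FPKM + 0.1, so that folds of genes with low values are understated. From the spacing of the lowest values, 1 FPKM corresponded to roughly 18.8 reads (2.8 mM DMSO) or 8.01 reads (no-virus DMSO), at a gene as long as the median weakly expressed gene. Estimated depth relative to these was 0.742 to 1.22 in the other glucose libraries and 0.905 to 1.35 in the other A-CREB libraries. Of 13 beta cell markers, 3 were listed in each table (MafA and Nkx2-2 in both, Ucn3 only in the first and Pdx1 only in the second), and of 17 markers of other cell types only Kdr, an endothelial receptor gene, was listed. Markers that forskolin did not raise are outside these tables. The listed beta cell markers moved with the conditions, and all had a lower DMSO level at 20 mM and with A-CREB. MafA was at 77.3 FPKM in forskolin and 14.6 FPKM in DMSO at 20 mM, against 639 FPKM in forskolin and 149 FPKM in DMSO at 2.8 mM. Nkx2-2 was at 93.4 FPKM in forskolin and 43.0 FPKM in DMSO at 20 mM, against 192 FPKM in forskolin and 95.3 FPKM in DMSO at 2.8 mM. Ucn3 was listed at 0 in both 20 mM libraries, against 3.20 FPKM in forskolin and 1.33 FPKM in DMSO at 2.8 mM. MafA and Nkx2-2 encode transcription factors of beta cells, and Ucn3 encodes the peptide urocortin. With A-CREB the log2 ratio of DMSO levels to those without virus was -2.23 for Nkx2-2, -1.14 for MafA and -0.46 for Pdx1, a further beta cell transcription factor. The part of these differences in the AP-1 results was not tested.

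RefSeq promoters (GRCr8, 250 bases before to 50 after the annotated start) were given for 5 of the 6 members, all but Fos. They are shown because all members were listed as higher with forskolin, a cAMP signal. The window was searched on both strands for the CRE TGACGTCA and its shorter form TGACG, for the AP-1 element TGANTCA, and for the CArG box, bound by serum response factor. Capitals mark TGACG or its reverse complement CGTCA, and the full CRE, which holds both. Jund is on the minus strand at chr16:18769722-18770021, Fosl1 on the plus strand at chr1:212183635-212183934, Junb on the plus strand at chr19:40080876-40081175 and Fosl2 on the minus strand at chr6:30039220-30039519.
Jund: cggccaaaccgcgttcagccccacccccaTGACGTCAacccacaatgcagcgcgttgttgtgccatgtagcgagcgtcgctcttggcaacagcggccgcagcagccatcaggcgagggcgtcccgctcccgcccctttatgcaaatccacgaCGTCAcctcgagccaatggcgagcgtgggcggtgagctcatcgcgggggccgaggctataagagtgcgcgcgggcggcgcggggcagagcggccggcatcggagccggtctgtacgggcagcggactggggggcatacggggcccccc
Fosl1: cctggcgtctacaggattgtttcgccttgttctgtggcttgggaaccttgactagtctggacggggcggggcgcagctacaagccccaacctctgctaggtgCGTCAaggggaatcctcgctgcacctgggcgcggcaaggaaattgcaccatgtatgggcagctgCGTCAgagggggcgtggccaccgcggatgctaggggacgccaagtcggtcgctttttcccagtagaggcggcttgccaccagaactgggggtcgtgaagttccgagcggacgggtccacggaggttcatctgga
Junb: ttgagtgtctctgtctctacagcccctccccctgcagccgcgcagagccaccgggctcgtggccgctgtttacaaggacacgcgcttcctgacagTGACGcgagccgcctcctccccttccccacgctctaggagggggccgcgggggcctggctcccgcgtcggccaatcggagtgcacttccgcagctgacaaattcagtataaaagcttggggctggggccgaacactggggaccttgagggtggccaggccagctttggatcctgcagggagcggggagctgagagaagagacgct
Fosl2: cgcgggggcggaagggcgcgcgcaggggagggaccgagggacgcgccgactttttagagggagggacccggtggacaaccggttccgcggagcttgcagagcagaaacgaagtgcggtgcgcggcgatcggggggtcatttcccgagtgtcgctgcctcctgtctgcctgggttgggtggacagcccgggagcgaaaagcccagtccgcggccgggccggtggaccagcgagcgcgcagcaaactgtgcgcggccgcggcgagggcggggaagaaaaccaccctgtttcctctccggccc

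Jund held 1 full CRE, starting 221 bases before the start site, and a further CGTCA starting 98 bases before it. The full CRE is found in 1.83% of all 33469 RefSeq promoters, but in 7.04% of the 1037 matched promoters of the glucose table and 7.55% of the 437 of the A-CREB table. Fosl1 held CGTCA at 2 places, 148 and 84 bases before the start, and Junb held TGACG once, 155 bases before it. The short form, counted also where it is part of a full CRE, is found in 21.2% of all promoters, in 40.1% of those of the glucose table and in 37.5% of those of the A-CREB table. Fosl2 and Fosb held neither. The start used for the Fosb window lies inside the annotated span of its gene, and it is not printed. TGANTCA and the CArG box, found in 7.33% and 1.64% of all promoters, were in none of the 5 windows. Jund, whose window held the full CRE, had the lowest reference fold of the 6, 7.26 at 2.8 mM and 2.53 without virus. Fosl2, whose window held none of the motifs, had reference folds of 412 at 2.8 mM and 111 without virus. Sites outside these short windows or at other start sites were not searched. The part of any site in the folds was not tested.

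The glucose comparison asked whether the forskolin response of cells kept at 20 mM differed from that of cells kept at 2.8 mM. All 6 AP-1 genes were at least 2-fold higher with forskolin at 20 mM, as were 37.2% of all genes of the table. The median log2 fold at 20 mM was 4.41 over the 6 members. It was 2.27 over the 158 other genes at least 8-fold at 2.8 mM, a set chosen after seeing the data. In that set too most genes thus passed 2-fold. All 6 also had a lower fold at 20 mM than at 2.8 mM, as did 91.2% of all genes. Relative to the table median (-0.81), though, the fold was lower for 4 of 6, not for Fosl1 and Jund. With a pseudocount of 1 Jund was also below the median, with a change of -0.73 against -0.63. Without a pseudocount Fosb was above it, with -0.86 against -0.87. The listing by the fold at 2.8 mM favours such lower folds. For 5 of the 6 the fold was lower by more than 1.5 times, against 65.6% of all genes. Their forskolin levels were lower at 20 mM in 6 of 6 genes, against 80.4% of all genes, and relative to the table median (-0.67) in 5 of 6, not for Fosl1. DMSO levels, in contrast, split the family. In a whole culture, fewer responding cells and less RNA per cell cannot be told apart.

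Fosl2 was the most abundant of the 6 in both forskolin libraries. At 20 mM it was at 728 FPKM in forskolin and 31.0 FPKM in DMSO, and at 2.8 mM at 1544 FPKM in forskolin and 3.65 FPKM in DMSO. Its forskolin level was thus 2.12 times lower at 20 mM while its DMSO level was 8.29 times higher, and the fold was 23.4 at 20 mM and 412 at 2.8 mM. Its change of log2 fold, -4.14, was the second lowest of all 1344 genes. The fold at 2.8 mM, which is part of that change, was itself among the highest of the table.

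Fos was at 73.8 FPKM in forskolin and 2.61 FPKM in DMSO at 20 mM, and at 155 FPKM in forskolin and 1.24 FPKM in DMSO at 2.8 mM. Its forskolin level was 2.11 times lower and its DMSO level 2.03 times higher at 20 mM, with folds of 27.2 at 20 mM and 116 at 2.8 mM. Fos thus had the same pair of opposite differences as Fosl2, smaller in DMSO.

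Fosb was at 68.0 FPKM in forskolin and 0.270 FPKM in DMSO at 20 mM, and at 161 FPKM in forskolin and 0.352 FPKM in DMSO at 2.8 mM. Unlike Fosl2 and Fos, its DMSO level was not higher at 20 mM, with a log2 ratio of -0.29. Its fold was 184 at 20 mM and 357 at 2.8 mM, the second and the third highest of the table. Its DMSO values are worth about 6.18 reads at 20 mM and 6.61 reads at 2.8 mM, taken at the length of the median weakly expressed gene, so the size of the folds is uncertain.

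Fosl1, the least abundant of the 6 in forskolin, was at 14.9 FPKM in forskolin and 0.680 FPKM in DMSO at 20 mM. At 2.8 mM it was at 21.3 FPKM in forskolin and 0.734 FPKM in DMSO. Both its forskolin and its DMSO level differed by less than 1.5 times between the 2 glucose levels, with log2 ratios of -0.51 and -0.10. Its folds were 19.2 at 20 mM and 25.7 at 2.8 mM, and it was the member whose fold differed least.

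Junb was at 156 FPKM in forskolin and 31.7 FPKM in DMSO at 20 mM, and at 308 FPKM in forskolin and 17.5 FPKM in DMSO at 2.8 mM. Jund was at 303 FPKM in forskolin and 69.3 FPKM in DMSO at 20 mM, and at 575 FPKM in forskolin and 79.1 FPKM in DMSO at 2.8 mM. In forskolin both were lower at 20 mM by nearly the same factor, 1.98 for Junb and 1.90 for Jund. In DMSO Junb was 1.80 times higher at 20 mM and Jund had a log2 ratio of -0.19. Their folds at 20 mM and 2.8 mM were 4.90 and 17.5 for Junb, and 4.36 and 7.26 for Jund.

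**Figure D1:**
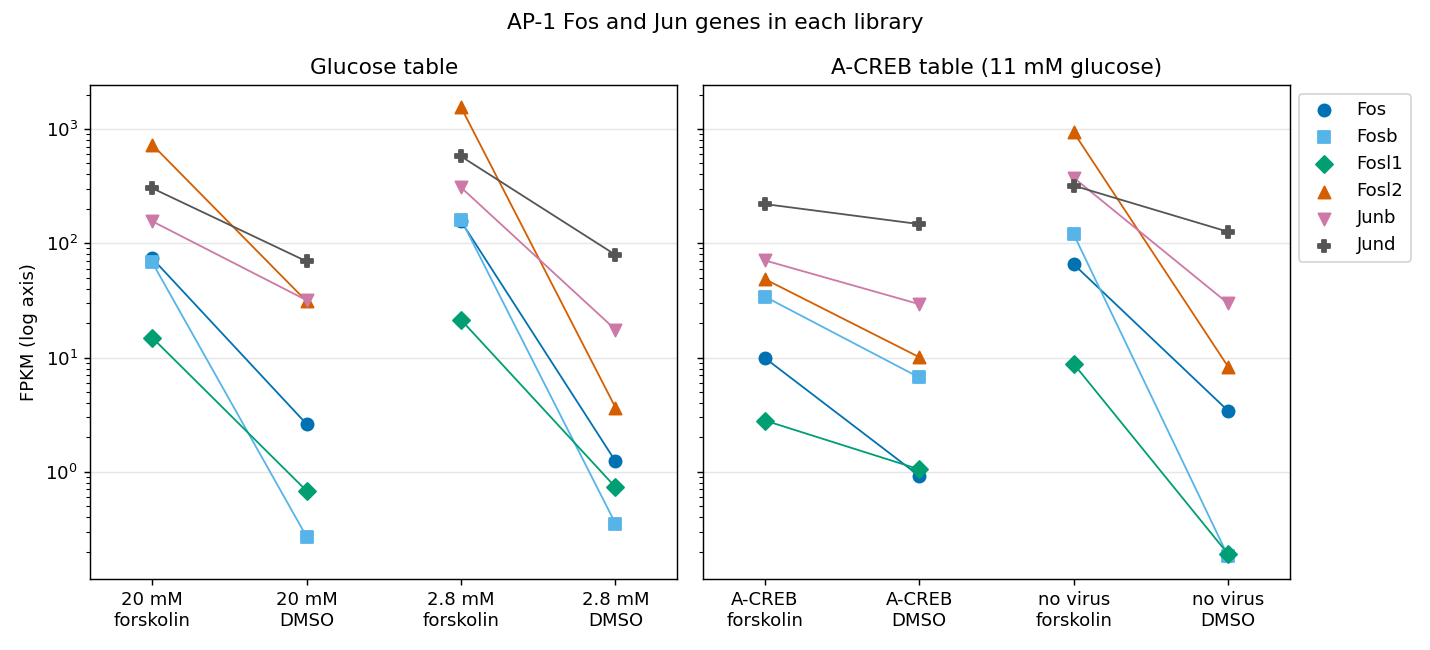
FPKM of the 6 AP-1 genes in each library (log axis), glucose table left and A-CREB table right, with lines joining forskolin and DMSO of 1 condition. Fosl2 leads in forskolin at 20 mM (728), at 2.8 mM (1544) and without virus (933), whereas Jund leads in all DMSO libraries and in A-CREB forskolin (220.1).

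Across the family, DMSO levels were higher at 20 mM by more than 1.5 times for Fosl2, Fos and Junb, 3 of 6 genes, against 28.2% of all genes, and lower by that factor for 0 of 6, against 15.9%. The forskolin level was lower by more than 1.5 times for 5 of 6 genes, against 54.6% of all genes, with Fosl1 as the exception. Both differences together, a lower forskolin level and a higher DMSO level by more than 1.5 times, were seen for the same 3 genes and for 6.62% of all genes. The median log2 ratio of forskolin levels was -1.03 over the 6 members and -0.67 over all genes. Read against that table median, 0 of the 6 forskolin levels were lower by more than 1.5 times. The share of all genes by that reading was not computed. The scaling of the libraries is not given in the sources used here.

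**Figure D2:**
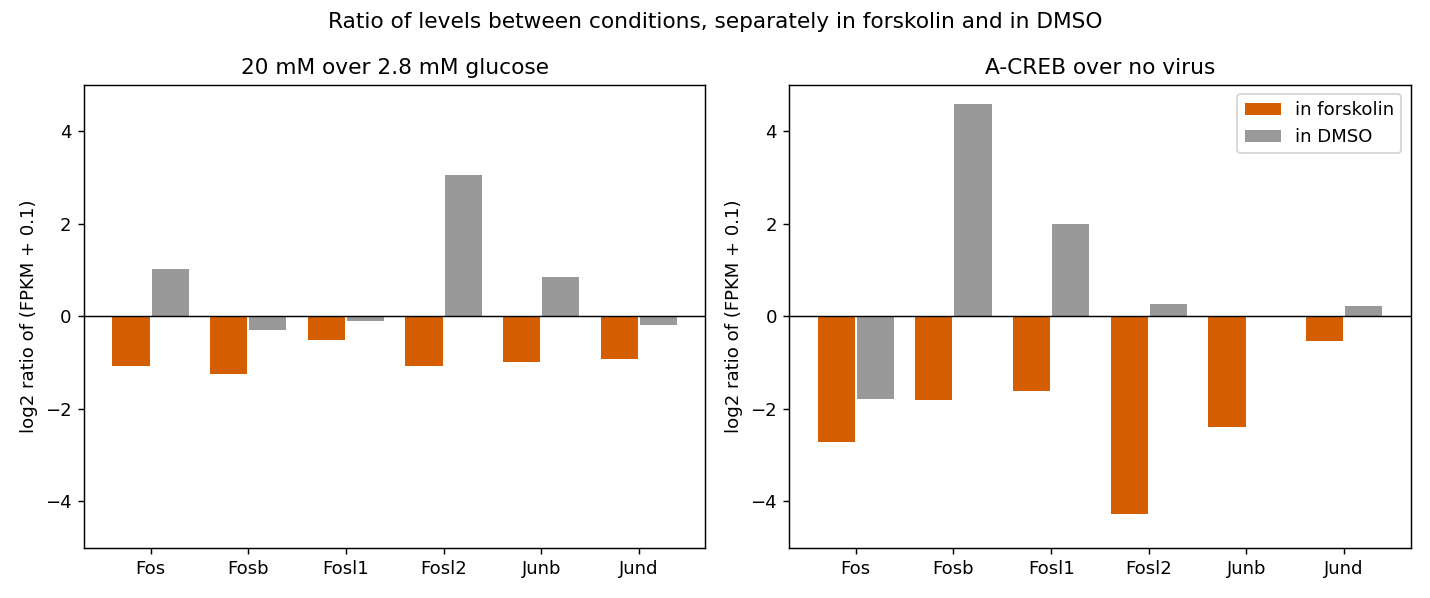
Log2 ratio of FPKM + 0.1 between conditions for each AP-1 gene, in forskolin (orange) and in DMSO (grey), 20 mM over 2.8 mM left and A-CREB over no virus right. Forskolin ratios at 20 mM span -1.24 to -0.51, while the DMSO ratio reaches 3.05 for Fosl2 and, with A-CREB, 4.59 for Fosb.

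Expressed as a difference instead of a ratio, the forskolin response was more even across the 6 genes. This measure, forskolin minus DMSO in FPKM, was chosen after the values had been seen. For Fosl2 the increment was 697 FPKM at 20 mM and 1540.3 FPKM at 2.8 mM, that is 45.3% of the 2.8 mM increment. The percentages were 46.1% for Fos, 42.1% for Fosb, 42.7% for Junb and 47.1% for Jund. These 5 genes differ widely in level and in fold but lay within 42.1% to 47.1%. Fosl1 stood apart at 69.0%, with increments of 14.2 FPKM at 20 mM and 20.6 FPKM at 2.8 mM. Over all genes of the table the median was 35.2% (interquartile range 12.2% to 59.4%), and 67.0% of genes were below 50%, as were 5 of the 6 members. The increments of the 6 genes together came to 45.4% of those at 2.8 mM.

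The A-CREB comparison asked whether the response to forskolin differed when CREB was blocked, at 11 mM glucose. A 2-fold value with A-CREB was reached by 5 of the 6 AP-1 genes, against 19.1% of all genes of that table, with Jund as the exception. With a pseudocount of 1 in place of 0.1 it was reached by 4, as Fosl1 then had a log2 fold of 0.89. The median log2 fold with A-CREB was 1.80 over the 6 members. It was 1.25 over the 56 other genes at least 8-fold without virus, a set chosen after seeing the data. Most genes of that set thus passed 2-fold as well. The fold was lower with A-CREB for 6 of 6, against 92.2% of all genes. Relative to the table median (-1.20), though, it was lower for 4 of 6, not for Fos and Jund. With a pseudocount of 1 Fos was also below the median, with a change of -1.41 against -0.82. Here too the listing, by the fold without virus, favours lower folds. By more than 1.5 times the fold was lower also for 6 of 6, against 79.0%. Relative to the median of -1.20 this held for 4 of 6, against 152 of all 566 genes. The forskolin level was lower for 6 of 6, against 78.4% of all genes, and relative to the table median (-0.90) for 5 of 6, not for Jund. It was lower by more than 1.5 times for 5 of 6, against 61.0%. A lower forskolin level together with a higher DMSO level, each by more than 1.5 times, was found for Fosb and Fosl1 and for 13.3% of all genes. The change of log2 fold ran from -6.40 for Fosb to -0.76 for Jund.

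Fosl2 was at 48.5 FPKM in forskolin and 10.1 FPKM in DMSO with A-CREB, and at 933 FPKM in forskolin and 8.31 FPKM in DMSO without virus. Its fold was 4.78 with A-CREB and 111 without virus. Here the lower fold went with the forskolin level, which was 19.2 times lower with A-CREB, while the DMSO level was 1.21 times higher (a log2 ratio of -0.08 relative to the table median). Among all listed genes Fosl2 had the second highest forskolin level without virus.

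Fosb was at 34.1 FPKM in forskolin and 6.69 FPKM in DMSO with A-CREB, and at 119.9 FPKM in forskolin and 0.183 FPKM in DMSO without virus. Its forskolin level was 3.51 times lower with A-CREB and its DMSO level 24.0 times higher. The change of log2 fold, -6.40, was the lowest of all 566 genes, but it spans -7.01 to -4.49 over pseudocounts from 0 to 1. The fold without virus, which is part of that change, was itself the highest of the table. The no-virus DMSO value is worth about 1.46 reads at the length of the median weakly expressed gene.

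Fosl1 was at 2.81 FPKM in forskolin and 1.05 FPKM in DMSO with A-CREB, and at 8.80 FPKM in forskolin and 0.191 FPKM in DMSO without virus. As for Fosb, the DMSO level was higher with A-CREB, 3.96 times, and the forskolin level lower, 3.06 times. Its no-virus DMSO value is worth about 1.53 reads by the same estimate. The folds were 2.53 with A-CREB and 30.6 without virus. The change of log2 fold spans -4.11 to -2.15 over pseudocounts from 0 to 1. At a pseudocount of 1 the log2 fold was 0.89 with A-CREB and 3.04 without virus, and the log2 ratio of DMSO levels was 0.78.

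Fos was at 9.91 FPKM in forskolin and 0.922 FPKM in DMSO with A-CREB, and at 65.5 FPKM in forskolin and 3.42 FPKM in DMSO without virus. It was the 1 member whose level was lower by more than 1.5 times in both states, 6.56 times lower in forskolin and 3.44 times lower in DMSO. Its fold of 9.80 with A-CREB was thus the highest of the family and the ninth highest of the table, against 18.7 without virus. The A-CREB DMSO value of Fos is worth about 7.97 reads at the length of the median weakly expressed gene. At a pseudocount of 1 its log2 fold with A-CREB was 2.51 in place of 3.29. Its log2 ratio of DMSO levels was then -1.20 in place of -1.78. A-CREB DMSO levels lower by more than 1.5 times were found for 17.3% of all genes, and levels higher by that factor, as for Fosb and Fosl1, for 38.5%.

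Junb was at 70.7 FPKM in forskolin and 29.3 FPKM in DMSO with A-CREB, and at 374 FPKM in forskolin and 29.7 FPKM in DMSO without virus. Its DMSO level was nearly equal, with a log2 ratio of -0.02, and its folds were 2.41 with A-CREB and 12.5 without virus. Jund was at 220.1 FPKM in forskolin and 147 FPKM in DMSO with A-CREB, and at 319 FPKM in forskolin and 126 FPKM in DMSO without virus. Its folds were 1.497 with A-CREB and 2.53 without virus. In both comparisons Jund had the lowest fold of the family in each condition.

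**Figure D3:**
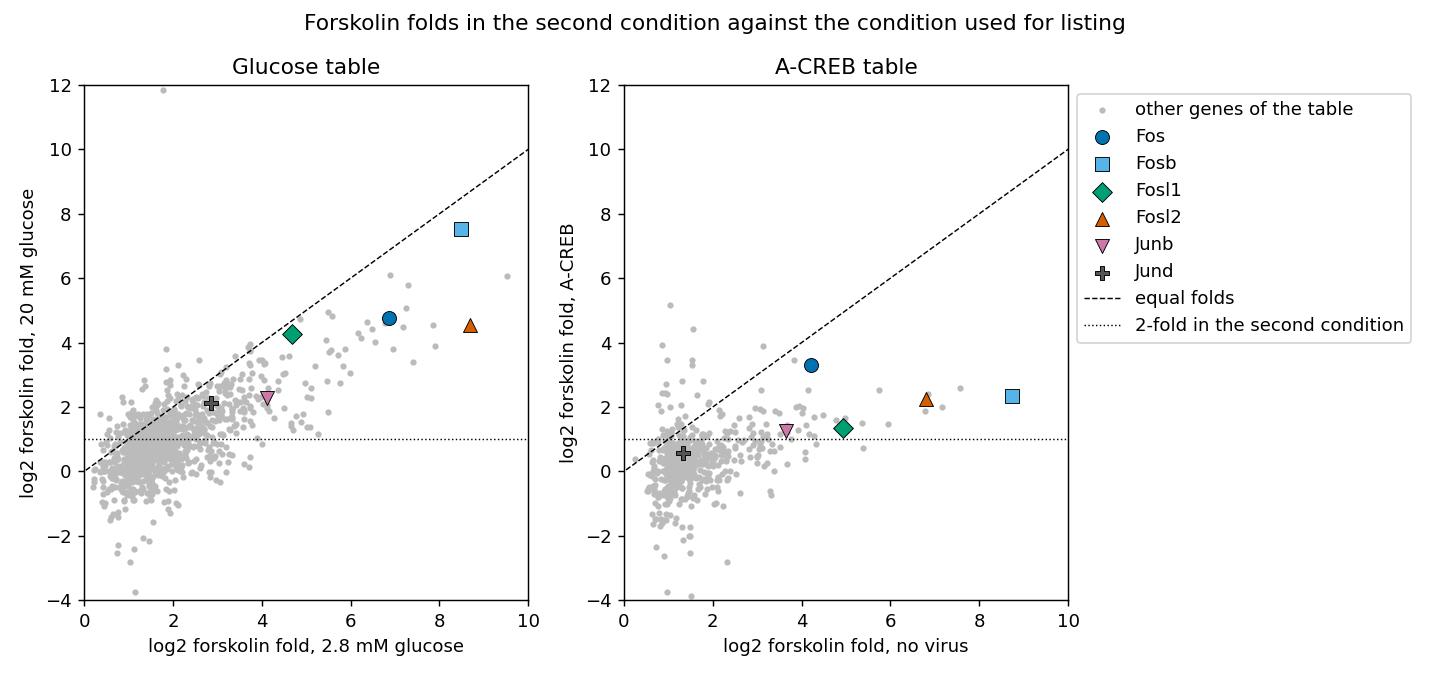
Log2 forskolin fold of every listed gene, in the second condition (vertical) against the condition used for listing (horizontal), with AP-1 genes marked, a dashed line of equal folds and a dotted line at 2-fold. All 6 lie below the dashed line in both tables (4 of 6 in each relative to the table median), and the gap is widest for Fosl2 at 20 mM (-4.14) and for Fosb with A-CREB (-6.40).

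The increment with A-CREB was 4.16% of that without virus for Fosl2, 12.03% for Junb, 14.5% for Fos, 20.4% for Fosl1, 22.9% for Fosb and 37.9% for Jund. The median over all genes was 12.2% (interquartile range -10.8% to 33.0%), and 80.2% of genes were below 50%, as were 6 of the 6 members. Fosl2 was thus below the table median, Junb close to it, and Fos, Fosl1, Fosb and Jund above it. In FPKM, Fosl2 had an increment of 38.5 with A-CREB and 924 without virus, and Jund of 73.1 with A-CREB and 193 without virus. The order of these 2 genes by increment was therefore opposite in the 2 conditions.

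**Figure D4:**
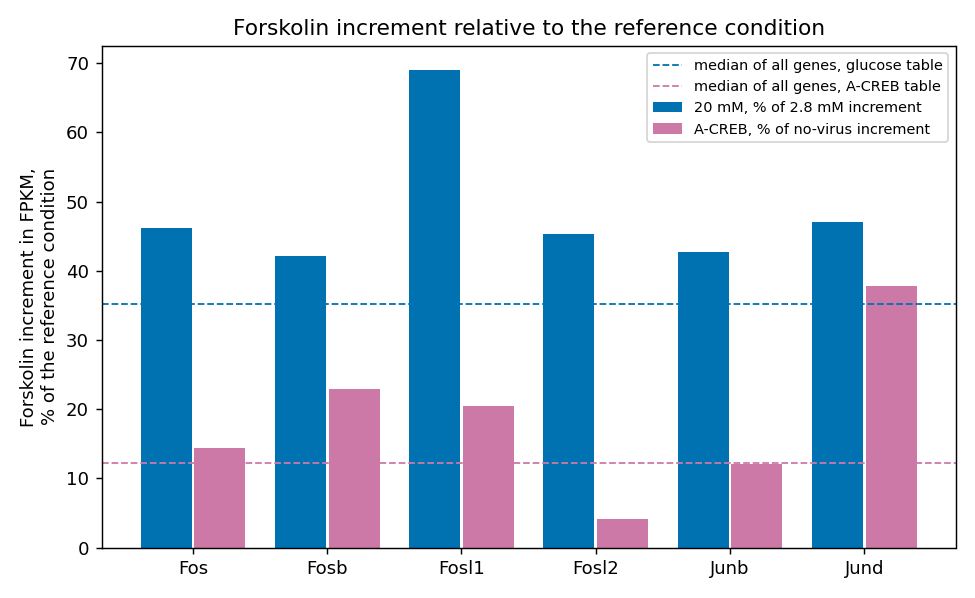
Forskolin minus DMSO in FPKM for each AP-1 gene as a percent of the reference condition, 20 mM over 2.8 mM (blue) and A-CREB over no virus (pink), with dashed lines at the medians of all genes (35.2% and 12.2%). The blue bars lie within 42.1% to 47.1% except Fosl1 (69.0%), and the pink bars run from 4.16% (Fosl2) to 37.9% (Jund).

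Since FPKM is per length, levels of the 6 genes can be set side by side within a library. In forskolin the order at 20 mM was Fosl2, Jund, Junb, Fos, Fosb, Fosl1, and at 2.8 mM it was Fosl2, Jund, Junb, Fosb, Fos, Fosl1. In DMSO the order was Jund, Junb, Fosl2, Fos, Fosl1, Fosb at both glucose levels, though Junb and Fosl2 were nearly equal at 20 mM. The 6 genes summed to 1343.5 FPKM in forskolin and 136 FPKM in DMSO at 20 mM (9.91-fold), and to 2764 FPKM in forskolin and 103 FPKM in DMSO at 2.8 mM (26.9-fold). The 4 Fos genes made up 65.9% of that sum in forskolin and 25.5% in DMSO at 20 mM, against 68.1% in forskolin and 5.82% in DMSO at 2.8 mM. Fosl2 alone made up 22.9% in DMSO at 20 mM and 3.56% in DMSO at 2.8 mM. In the forskolin libraries its share was 54.2% at 20 mM and 55.9% at 2.8 mM. The make-up in forskolin was thus close at the 2 glucose levels, and the difference lay in DMSO.

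With A-CREB the sum was 386 FPKM in forskolin and 195 FPKM in DMSO (1.98-fold), against 1820.4 FPKM in forskolin and 168 FPKM in DMSO without virus (10.8-fold). Here the make-up in forskolin differed. Fosl2 made up 12.6% with A-CREB and 51.2% without virus, and Jund 57.0% with A-CREB and 17.5% without virus. The Fos genes together made up 24.7% of the sum in A-CREB forskolin and 61.9% in no-virus forskolin. In DMSO they made up 9.60% with A-CREB and 7.21% without virus. In A-CREB forskolin the order was Jund, Junb, Fosl2, Fosb, Fos, Fosl1, led by the Jun genes as in the DMSO libraries. These sums do not hold Jun, which the A-CREB table does not list.

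**Figure D5:**
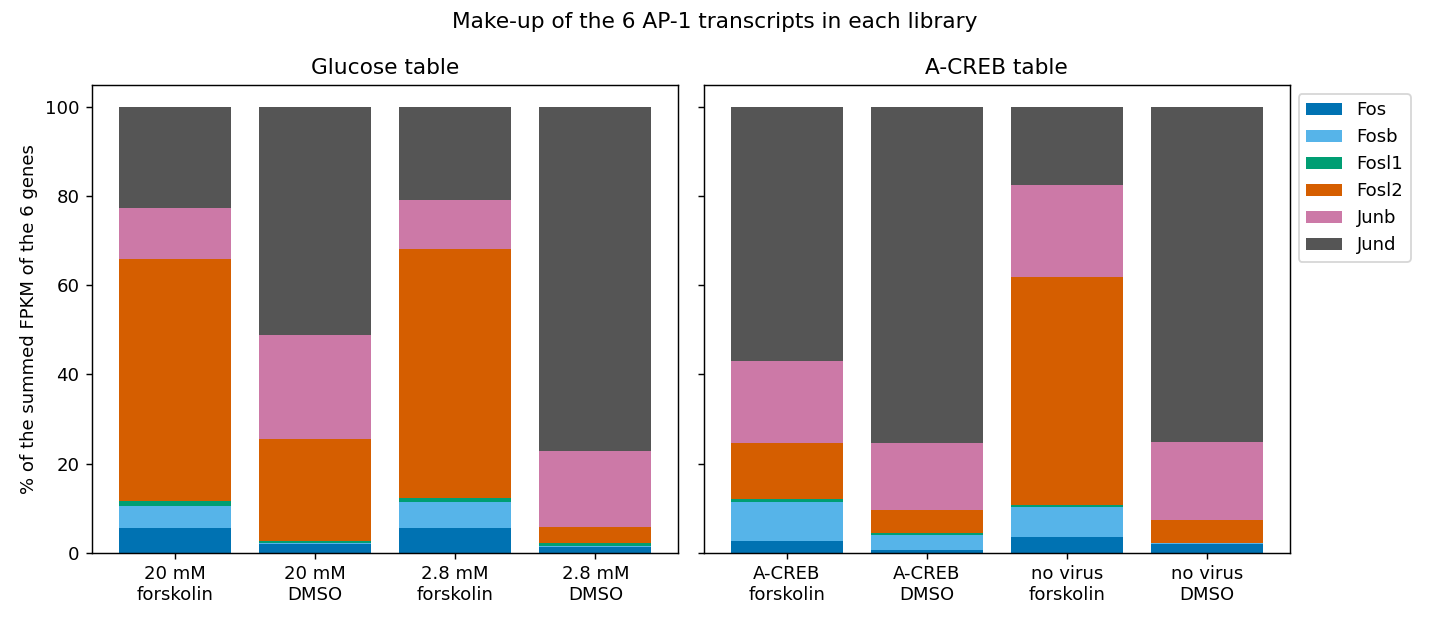
Percent of the summed FPKM of the 6 AP-1 genes taken by each gene in each library, glucose table left and A-CREB table right. Fosl2 holds 54.2% and 55.9% in forskolin at 20 mM and 2.8 mM and 51.2% without virus, but 12.6% in A-CREB forskolin, where Jund holds 57.0%.

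Jun, the founding Jun gene and not one of the 6, was listed in the glucose table and is given here after its values had been seen. It was at 8.15 FPKM in forskolin and 6.23 FPKM in DMSO at 20 mM, and at 18.7 FPKM in forskolin and 3.19 FPKM in DMSO at 2.8 mM. Its fold was 1.30 at 20 mM and 5.71 at 2.8 mM, lower than for any of the 6 members at the same glucose level. The increment of Jun at 20 mM was 12.4% of that at 2.8 mM, also lower than for any of them. Jun thus had the same opposite differences as Junb, with a lower forskolin and a higher DMSO level at 20 mM.

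The genes of each table whose pattern over its 4 libraries was most like a member's were found by distance between log2 profiles after removing each gene's mean, among genes that averaged 5 FPKM or more. For Fos in the glucose table, of 874 such genes, these were Sik1, a kinase that restrains CREB coactivators (distance 0.22), then Sv2c and Klf4. For Jund they were Errfi1, a feedback inhibitor of the EGF receptor (0.13), then Ppp1r11 and Emd, and for Junb they were Nptx1 (0.24), Syt4 and Midn. Fosl2 had no such close match, with the cyclin gene Ccnd1 at 1.09, then Nr4a3 and Gprc5a. Fosb was the most isolated, with Kdr at 1.72, then Nr4a3 and Rgs2. Kdr, the 1 listed marker of another cell type, was at 32.3 FPKM in forskolin and 0.373 FPKM in DMSO at 20 mM, and at 41.3 FPKM in forskolin and 0.252 FPKM in DMSO at 2.8 mM, and its part in the result was not tested. Fosl1 was nearest to Csrnp1 (0.61), then Diras2 and Pdzrn3. In the A-CREB table, Fosl2 was nearest to the orphan receptor gene Nr4a3 (0.81), then Sik1 and Nr4a2, and Junb to the hormone gene Stc1 (0.22), then Actn2 and Midn. Jund was nearest to Lysmd3 (0.12), then Arl4a and Dgcr6, and Fosl1 to the bZIP factor gene Cebpd (0.66), then Id4 and Dusp1. Fos was nearest to Runx1 (0.998), then C14h1orf146 and Cxcr7, and Fosb to Klf4 (2.24), then Rgs2 and Sik1. Midn for Junb, Nr4a3 for Fosl2 and Rgs2 for Fosb were among the nearest 3 of the same member in both tables.

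Among the 6 genes, Junb and Jund were each other's nearest member in the glucose table, at a distance of 1.03. Fosb and Jund were the farthest pair in both tables, at 5.51 (glucose) and 5.59 (A-CREB).

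Counts of lower folds in the gene lists stand against the 91.2% (20 mM) and 92.2% (A-CREB) found for all genes. Other basic leucine zipper (bZIP) factors, the wider family of AP-1, gave a smaller median. Of 41 on the list, 16 were in the glucose table, and the fold at 20 mM was lower in 14 of these. Their median change of log2 fold was -0.96, against -1.39 for the 6 members and -0.81 for all genes. The lists differ in the fold at 2.8 mM, with a median log2 of 2.11 for these factors and 5.77 for the members. Over the 158 other genes at least 8-fold at 2.8 mM the median change was -1.66. It was -1.83 over the members at least 8-fold there, which leaves out Jund. The 4 most expressed of the bZIP factors were Atf4, Crem, MafA and Cebpd. Atf4, a stress response factor, had folds of 1.86 at 20 mM and 2.44 at 2.8 mM, and the C/EBP gene Cebpd had 30.8 at 20 mM and 44.8 at 2.8 mM. Crem, which encodes activators and the CREB antagonist ICER, had folds of 16.3 at 20 mM and 94.3 at 2.8 mM. MafA, a factor of mature beta cells, had the higher fold at 20 mM, 5.27 against 4.27 at 2.8 mM. The A-CREB table held 10, of which 9 had a lower fold, and the median was -1.02 against -2.99 for the 6 AP-1 genes and -1.20 for all genes. Median log2 folds without virus were 2.06 for these factors and 4.58 for the AP-1 genes. Over the 56 other genes at least 8-fold without virus the median change was -2.61. The 4 most expressed bZIP factors in the A-CREB table were Ddit3, MafA, Crem and Atf3. The stress factor Atf3 was the 1 with a higher fold, 3.29 with A-CREB and 2.57 without virus. Crem had folds of 2.80 with A-CREB and 61.6 without virus. MafA had 3.67 with A-CREB and 8.73 without virus, and the stress factor Ddit3 had 1.80 with A-CREB and 2.01 without virus.

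Of other immediate early genes, 18 were in the glucose table and for 12 the fold at 20 mM was lower (median change -1.04). Ctgf, counted among those with a higher fold, was listed at 0 in 20 mM DMSO and at 1.30 FPKM in 20 mM forskolin, against 0.498 FPKM in forskolin and 0.067 FPKM in DMSO at 2.8 mM. The most expressed were Btg1, Nr4a1, Sik1 and Btg2. Their folds at 20 mM and 2.8 mM were 7.26 and 10.2 for the growth arrest gene Btg1, 13.99 and 58.9 for the nuclear receptor gene Nr4a1, 24.3 and 109 for Sik1, and 2.86 and 3.83 for Btg2. Their increments, as for the AP-1 genes, had a median near 50% of those at 2.8 mM (51.0% against 45.7% for the 6 members). With A-CREB the fold was lower in 13 of 13 listed genes. Their median change was -2.16 and their median increment 8.58%, against 17.4% for the 6 members. The most expressed were Btg1, Btg2, Nr4a1 and Gem, with folds with A-CREB of 1.91, 2.76, 2.55 and 2.27, against 8.53, 9.20, 12.8 and 5.02 without virus.

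MAP kinase signalling feeds AP-1, and its phosphatases and feedback genes were read beside it. Of 7 such genes listed in the glucose comparison, 6 had a lower fold at 20 mM (median change -0.97), and with A-CREB 7 of 7 listed had one (median -0.80). Dusp1, a phosphatase of MAP kinases, had folds of 3.62 at 20 mM and 12.2 at 2.8 mM, and of 5.78 with A-CREB and 17.7 without virus. Dusp8, Dusp4 and Errfi1 had folds of 1.91, 6.49 and 4.90 at 20 mM, against 4.43, 5.94 and 6.92 at 2.8 mM. With A-CREB the same 3 genes had folds of 1.79, 1.47 and 1.96, against 2.20, 2.43 and 2.78 without virus.

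Genes described elsewhere as AP-1 targets were also listed. At 20 mM the fold was lower in 9 of 10 (median change -1.92), and with A-CREB it was lower in 8 of 9 (median -2.45), near the 91.2% and 92.2% of all genes. Over all genes the median changes were -0.81 and -1.20. Among the targets that averaged 5 FPKM or more, all but Hmox1 had a lower fold at 20 mM (5 genes). With A-CREB all that averaged as much, Vegfa, Tac1 and Hbegf, had a lower fold (3 genes). Their changes of log2 fold were -0.43, -1.42 and -2.59, against a median of -1.15 over all genes that averaged as much. The most expressed targets in the glucose table were Vegfa, Ezr, Hbegf and Tac1. The growth factor gene Vegfa had folds of 3.12 at 20 mM and 3.48 at 2.8 mM, and the membrane linker gene Ezr had 2.11 at 20 mM and 3.23 at 2.8 mM. Hbegf, a ligand of the EGF receptor, had 3.45 at 20 mM and 30.5 at 2.8 mM, and the tachykinin gene Tac1 had 14.03 at 20 mM and 124 at 2.8 mM. Hbegf had, like Fosl2, a higher DMSO level at 20 mM, 56.1 FPKM against 3.98 FPKM at 2.8 mM, but its forskolin level was also higher, 194 FPKM at 20 mM against 124 FPKM at 2.8 mM. In the A-CREB table the most expressed were Vegfa, Tac1, Hbegf and Ccnd1, with folds with A-CREB of 1.58, 1.61, 3.25 and 2.35, against 2.12, 4.30, 19.5 and 12.8 without virus. The A-CREB count includes Lif and Cxcl1, each listed at 0 in 1 A-CREB library, for which no fold of the single gene is given.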

How the data were processed

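Per the labels' protocols, RNA came from a Trizol extraction and NEBNext Ultra kits were used on isolated mRNA. Per the submitters' processing notes, the tools were TopHat2 (aligner) and Cuffdiff (expression), on rn5. No version, annotation, strand setting or scaling is given in the sources used here. What the authors deposited is FPKM, a value per transcript length and library size, and a different scaling would shift every fold that uses a library. The lowest reference ratio of forskolin over DMSO was 2.00 in both tables, as tested on the values.

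Groups were taken from the labels, 1 library each, and p-values were not computed. Folds, levels and changes are log2 ratios of FPKM + 0.1. A call means at least 2-fold for forskolin over DMSO and more than 1.5 times between conditions. The share of all genes passing the same rule is given beside each first count, except for some counts read against the table median. The members and lists were chosen with earlier results of these data known. Named genes were the 6 members, the 3 genes nearest to each in each table, and for each list the 4 or fewer members of highest mean (other bZIP factors, other immediate early genes, MAPK phosphatases and feedback genes, described AP-1 targets, beta cell markers, markers of other cell types). Jun, Ctgf, Lif, Cxcl1 and Hmox1 were added after their values had been seen.

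Depth was read from genes averaging below 1 FPKM. Their ratios between libraries gather on fractions of small integers, the numbers of reads (tolerance 2%). Libraries were taken to differ by at most 1.4 times in step. The steps held 59.2% to 77.6% of the ratios, so the estimate is rough. Reads were not recovered as whole numbers and no count test was run. RefSeq promoters are of GRCr8, another assembly than the files', and were matched by symbol. The calculation of the change of fold was tested on simulated data without very low values. Other steps were not tested in this way. Alternatives were other pseudocounts, filters, thresholds and reading against the table median. Calculations used Python 3.11.15, numpy 2.4.6 and pandas 2.3.3.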

Additional observations from a re-analysis of the deposited data

How the results depend on the processing

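No paired analysis was possible because each group had 1 library, and for the same reason no replicate could be left out. The counts of 6 of 6 AP-1 genes with a lower fold at 20 mM and with A-CREB held under the pseudocounts that were run. They also held, for the members that passed, under the filters. Read against the table median at a pseudocount of 0.1 they were 4 of 6 in both comparisons. Past the 1.5-times limit, members with a lower fold were then 3 in place of 5 at 20 mM, against 292 of all 1344 genes. With A-CREB they were 4 in place of 6, against 152 of all 566 genes. Members with a lower forskolin level at 20 mM were 0 in place of 5. The median change of the members was then -0.59 at 20 mM and -1.79 with A-CREB, and the changes of Fosl1 (0.39 at 20 mM), Jund (0.074 at 20 mM and 0.44 with A-CREB) and Fos (0.27 with A-CREB) turned above 0, as did the log2 ratios of forskolin levels of Fosl1 at 20 mM (0.16) and of Jund with A-CREB (0.37). With A-CREB the members' median change of -2.99 was -2.26 with a pseudocount of 1, -2.38 where the mean had to be 5 FPKM or more, which leaves out Fosl1, and -3.60 for members at least 8-fold without virus. The filter at 5 FPKM also left 1 member with a higher A-CREB DMSO level in place of 2. At a 3-fold threshold 3 members passed with A-CREB in place of 5, and at a pseudocount of 1, 4 passed the 2-fold one.

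Of all genes, 784 passed a 1.5-fold and 257 a 3-fold threshold at 20 mM in place of 500, and 212 and 51 with A-CREB in place of 108. With A-CREB 66 passed at a pseudocount of 1 and 63 with a mean of at least 5 FPKM. Genes with a fold lower by more than 1.5 times were 569 at 20 mM and 212 with A-CREB at a mean of at least 5 FPKM, and 292 and 152 against the table median, in place of 881 and 447. Genes of 8-fold or more in the reference, a choice made after seeing the data and on a fold that is part of the change, had a median change of -1.67 at 20 mM and -2.64 with A-CREB, in place of -0.81 and -1.20. Apart from fewer genes under a filter or a higher threshold, the cause of these differences was not tested.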

Other observations

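The 2 reference conditions hold separate pairs of forskolin and DMSO libraries, at 2.8 mM glucose and, without virus, at 11 mM glucose. Their tables were treated separately, and how they were scaled is not given. At 2.8 mM the forskolin fold was 412 for Fosl2, 357 for Fosb, 116 for Fos, 25.7 for Fosl1, 17.5 for Junb and 7.26 for Jund. Without virus it was 424 for Fosb, 111 for Fosl2, 30.6 for Fosl1, 18.7 for Fos, 12.5 for Junb and 2.53 for Jund. Fosb and Fosl2 thus had the highest folds of the family in both pairs and Jund the lowest. The order of Fos and Fosl1 without virus depended on the pseudocount, with log2 folds of 3.91 for Fos and 3.04 for Fosl1 at a pseudocount of 1. So did the order of Fosb and Fosl2 at 2.8 mM, with 8.84 for Fosb and 8.72 for Fosl2 without a pseudocount. Without virus at a pseudocount of 1 they were nearly equal, with 6.68 for Fosb and 6.65 for Fosl2.

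Fosl2 made up 57.7% of the summed forskolin increment of the 6 genes at 20 mM and 57.9% at 2.8 mM. It made up 20.1% with A-CREB and 55.9% without virus.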
